A study of Mus musculus with 8 samples.

Results

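CP2 is a subpopulation of the chondrocyte progenitors (CPs) of the developing petrous temporal bone (PTB), the bone that houses the inner ear. Its members were the nuclei that the authors' deposited annotation names CP2, matched by library and barcode to the raw count matrices. They numbered 3579 of the 31076 annotated PTB nuclei, which fall into 15 cell types. The nuclei came from P5.5 pups by single-nucleus RNA sequencing (snRNA-seq). There were 2 libraries of wild-type (WT) littermates and 2 of Tbx1+/- mice, which carry a disrupted copy of Tbx1 in every cell, backcrossed onto C57BL/6J mice. Each library pooled 5 mice, and a WT and a Tbx1+/- pool were processed together in each of 2 batches, which the replicate numbers name. The libraries, not the nuclei, were therefore the replicates (n = 2 a genotype). No label gives the sex of the pooled pups. Tests between genotypes measure only the spread between these pools.

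Cartilage grows from progenitors in which Sox9, with its partners Sox5 and Sox6, turns on the genes of the cartilage matrix. Type II collagen (Col2a1) forms the fibrils of that matrix, and aggrecan (Acan) fills it with water-binding proteoglycan. Runx2 and Sp7 drive osteoblast formation, and Runx2 is also active in chondrocytes that are about to enlarge. The otic capsule arises from mesenchyme around the inner ear, in which Eya1, Tbx18 and Pou3f4 act.

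CP2 had 1216 nuclei in WT replicate 1 and 728 in WT replicate 2. It had 881 nuclei in Tbx1+/- replicate 1 and 754 in Tbx1+/- replicate 2. The summed CP2 nuclei held 3707241 to 4959041 unique molecular identifiers (UMIs) a library. The median CP2 nucleus had 3620 UMIs and 2126 detected genes in WT replicate 1, the shallowest library, and 4581 UMIs in Tbx1+/- replicate 2, the deepest. Mitochondrial UMIs had a median of 1.05% and 1.33% in batch 1 and of 0.630% and 0.694% in batch 2, a gap between batches larger than that between genotypes within them. Pairs of libraries shared 45 to 82 barcodes in all and at most 1 between their CP2 nuclei. Levels below are in CPM, the usual depth-scaled count, here the UMIs of a gene scaled to the same total in every set of summed nuclei. They are not divided by gene length, so a level is compared between cell types and not between genes. Types were defined by clustering the same nuclei on the same genes, so levels of CP2 against other types are a description without a test.

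The label markers were present in CP2. Acan, on chromosome 7 of GRCm38 from 79053483 to 79115099, was at 235 and 249.8 CPM in the WT libraries and 222 and 229 CPM in the Tbx1+/- libraries. This mean of 234 ± 11.7 CPM (SD, n = 4) was the second highest of the 15 types in every library, behind matured chondrocytes at 1333 CPM. CP1 followed at 191 CPM, and CP2 was 1.18 to 1.29 times CP1 in each library. CP3 had 49.5, CP4 67.2 and CP5 49.1 CPM, so Acan separated CP1 and CP2 from the other CPs.

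Sox9, on chromosome 11 from 112782224 to 112787760, was at 68.8 and 56.4 CPM in WT and 55.2 and 52.6 CPM in Tbx1+/-. CP2, at 58.2 ± 7.21 CPM (SD, n = 4), stood next to CP4, at 57.8 CPM, and the ratio of CP2 to CP4 ran from 0.781 to 1.20 over the libraries. Matured chondrocytes and CP5 were higher, at 144 and 101 CPM. Col2a1, on chromosome 15 from 97975602 to 98004695, was at 1138 and 838 CPM in WT and 989.9 and 853 CPM in Tbx1+/-. CP2 stood sixth for Col2a1 in every library, at 955 ± 140.1 CPM (SD, n = 4). It lay below matured chondrocytes (3664 CPM), CP5 (1818 CPM), CP4 (1454 CPM), CP3 (1082 CPM) and osteoblasts (1043 CPM). CP2 therefore paired the highest Acan among the CPs with a middling Col2a1. The plot of levels by cell type shows these orders library by library.

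**Figure D1:**
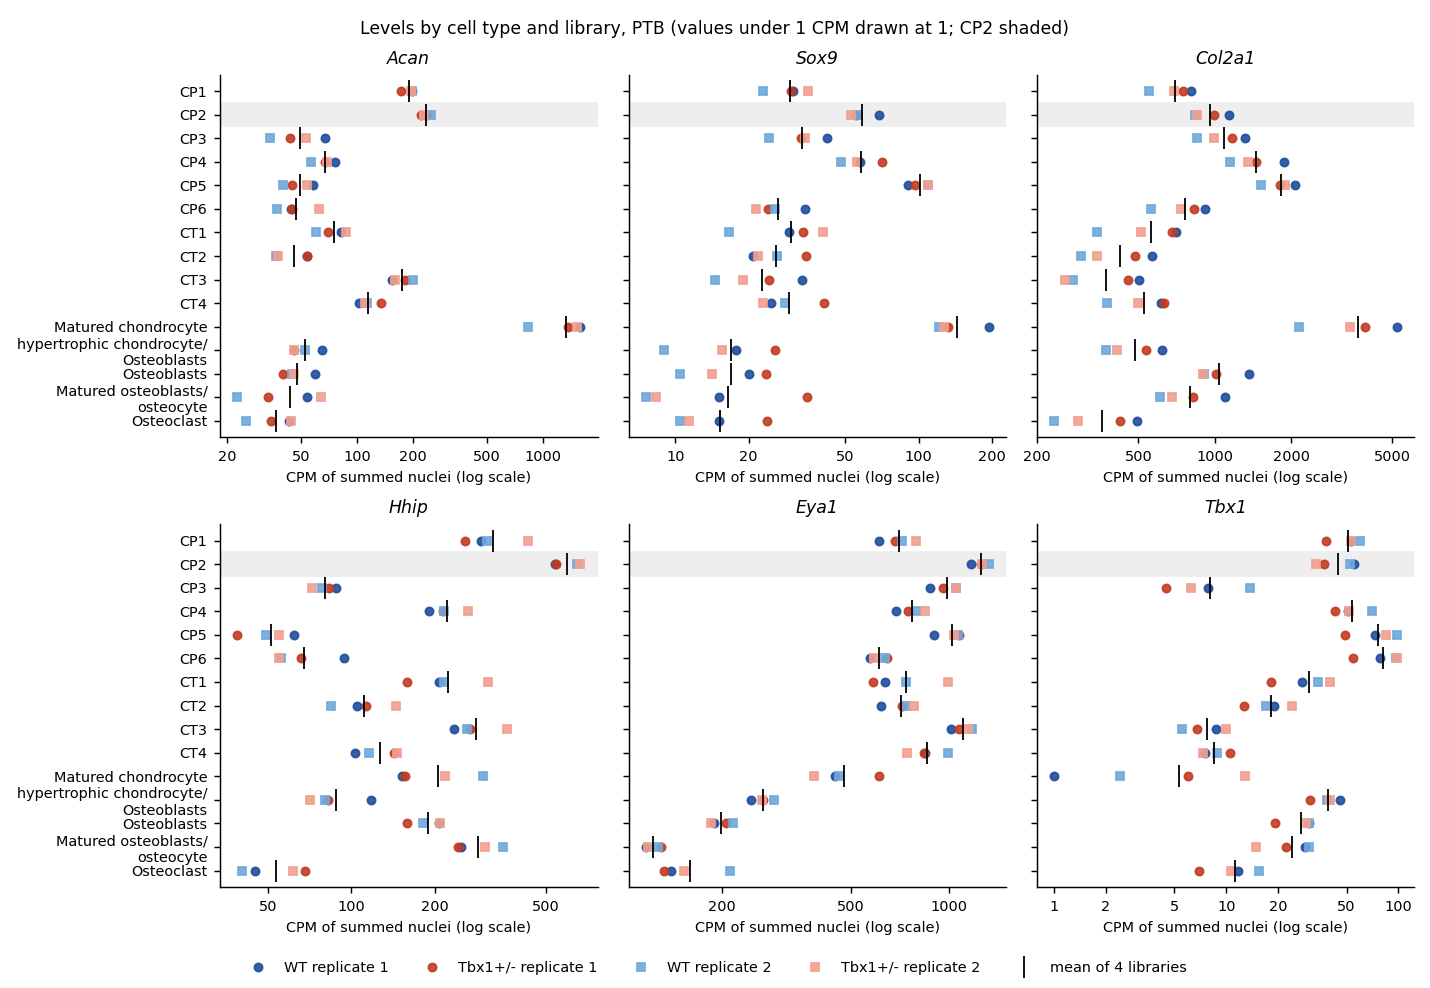
Levels of 6 genes in each of the 15 PTB cell types, in CPM of the summed nuclei on a log axis. Each point is a library (dark for replicate 1, light for replicate 2, blue for WT and red for Tbx1+/-), the bar is the mean of the 4 libraries, and CP2 is shaded. CP2 is second for Acan, sixth for Col2a1 and first for Hhip and Eya1 in all 4 libraries.

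Free RNA gives UMIs to nuclei that do not make a gene, so detection in CP2 was set beside osteoclasts, with each nucleus thinned to 2000 UMIs. On average over the libraries, Acan was detected in 28.5% of CP2 nuclei and in 6.33% of osteoclasts. Sox9 was detected in 10.4% of CP2 nuclei and 2.65% of osteoclasts. Col2a1 was detected in 74.6% of CP2 nuclei, against 44.2% of osteoclasts. Without thinning these shares were 44.1%, 21.0% and 90.5% in CP2 and 15.5%, 8.40% and 78.2% in osteoclasts. All 3 markers were thus found more often in CP2 than in osteoclasts, and the share of osteoclasts with Col2a1, which they should lack, gives the height of its background.

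The genes that led in CP2 were not those of the cartilage matrix. The lncRNA Gm6260 (chromosome 3, 143670892 to 143712210) was at 181 and 267 CPM in WT and 184 and 204 CPM in Tbx1+/-, against a mean of 13.8 CPM over the other 14 types. Gria4, a subunit of AMPA-type glutamate receptors, was at 723 and 893 CPM in WT and 811 and 892 CPM in Tbx1+/-, against 107 CPM. Sema3d, a secreted semaphorin that steers migrating cells, was at 3497 and 3936 CPM in WT and 3545 and 3848 CPM in Tbx1+/-, against 557 CPM. These 3 genes were higher in CP2 than in each other type by the means of the 4 libraries. CP4 came next for Gria4, at 474.6 CPM, and CP1 for Sema3d, at 1603 CPM.

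The 20 leading genes were those with at least 50 CPM in CP2 and the largest log2 ratio to the mean of the other 14 types in the library where that ratio was lowest. That lowest log2 ratio ran from 3.58 for Gm6260 to 1.76 for Alcam, an adhesion molecule. Several of them act at the cell surface. Tenm3, a teneurin, was at 3634 CPM in CP2 and 1031 CPM in the other types. Ctnnd2, a catenin that binds cadherins, was at 1713 and 334 CPM, Cntnap2, a neurexin-like protein, at 377 and 67.2 CPM, and the claudin Cldn11 at 219 and 49.4 CPM. Others are secreted or work in the matrix. Ism1 was at 202 CPM in CP2 and 36.0 CPM elsewhere, the metalloprotease gene Tll1 at 186 and 42.4 CPM, Adamts20 at 55.5 and 13.1 CPM, and Scube2, which helps to release hedgehog ligands, at 51.2 and 12.0 CPM. Mgat4c, Tmeff2, Car10, Hs3st5, Car13 and Hhip were also among them. The mean of 14 types hides high levels in single types near CP2. Tenm3 was at 2167 CPM in CP1 and Ctnnd2 at 1143 CPM in CP3. Tmeff2 was at 518 CPM in CP2 and 412 CPM in CP3, and Car10 at 107 and 94.0 CPM. The next type for Gm6260 was CT2, at only 49.4 CPM. For Tll1, Car13 and Alcam another type had a higher mean than CP2. Tll1 reached 203.8 CPM in CT1, a connective tissue type, and Car13 133.2 CPM and Alcam 1251 CPM in CT2.

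The genes with the lowest ratio of CP2 to the mean of the other 14 types were mostly osteoclast genes. A high level in osteoclasts raises that mean, so CP2 need not be the lowest type. Nyap2 was at 9.74 CPM in CP2 and 1553 CPM in osteoclasts, and 8 of the other types lay below CP2. For Slc9b2, 9 types lay below CP2, and for Lipc 0 did. Of the 10 lowest genes, 7 had their highest level in osteoclasts: St18, Nyap2, 1700111E14Rik, Tnfrsf11a, Dgki, Atp6v0d2 and Slc9b2. Tnfrsf11a, the receptor for RANKL, was at 8.91 CPM in CP2 and at 904.7 CPM in osteoclasts. Lipc and Bmp8a were highest in matured osteoblasts/osteocytes, and Creb5 in CP6, at 1234 CPM against 20.6 CPM in CP2. The plot of leading and lowest genes shows that all 4 libraries lay on the same side for each gene drawn.

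**Figure D2:**
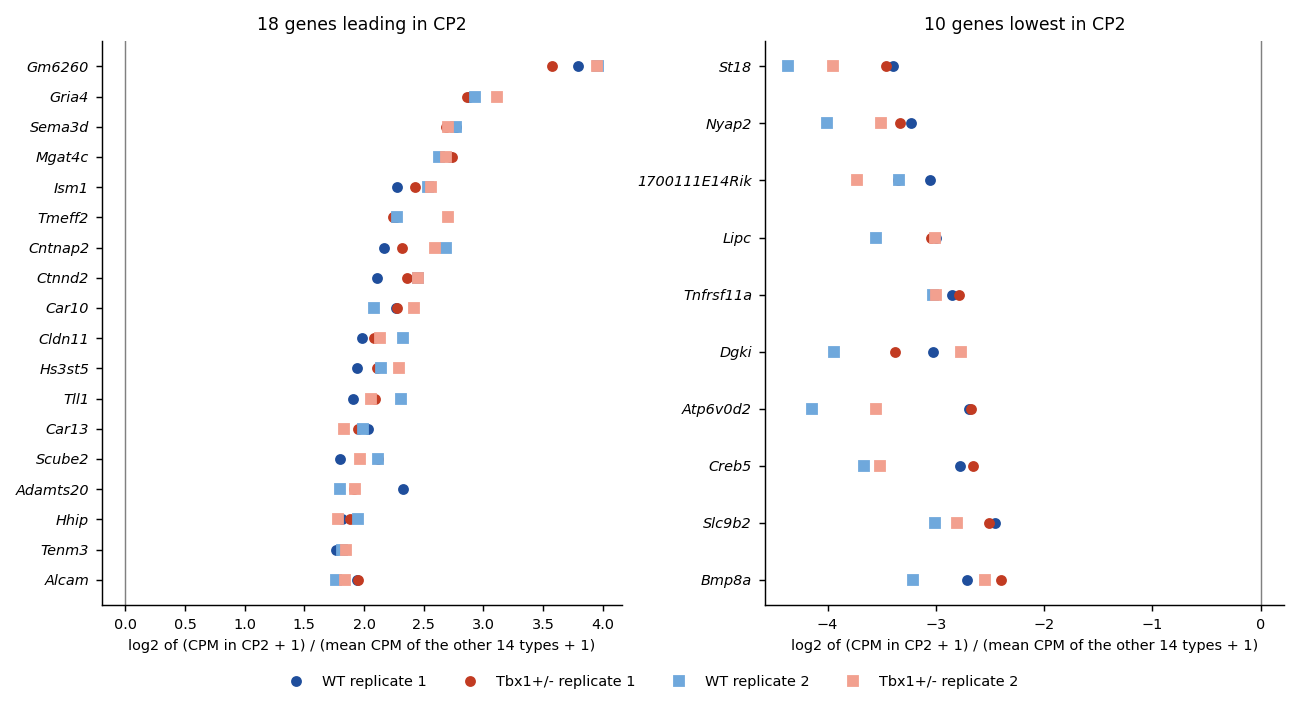
Log2 ratio of the CP2 level to the mean level of the other 14 PTB types, each with 1 CPM added. Drawn are 18 of the 20 genes leading in CP2 (left) and the 10 lowest by this ratio (right). Each point is a library (dark for replicate 1, light for replicate 2, blue for WT and red for Tbx1+/-). Gm6260 lies above 3.5 in all 4 libraries, and the points of a gene lie closer to each other than to 0.

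Few genes were highest in CP2 itself. Among genes with at least 50 CPM in CP2, 42 of 4350 were higher there than in each of the other 14 types in all 4 libraries. By the same count osteoclasts had 971 genes, matured chondrocytes 372, CP5 242, CP1 43 and CP4 29. Besides 15 of the 20 leading genes, the 42 held Eya1, Mkx and Smo, described below, the metalloprotease inhibitor gene Timp3 at 476.9 CPM, the homeobox factor gene Zfhx3 at 1844 CPM, and genes that act in dividing cells such as Diaph3 (237.9 CPM), Neil3 (77.3 CPM) and Tfdp1 (86.0 CPM).

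The type nearest to CP2 in every library was CP4. Over 10606 genes with at least 10 CPM, the correlation of log2 levels between CP2 and CP4 was 0.942 as the mean of the 4 libraries, with CP1 0.923 and with CP3 0.916. With osteoclasts it was 0.766. These correlations run across genes, which are not independent, and both types of a pair share their libraries. The connective tissue type CT1 had a mean of 0.907. It lay above CP3 in both libraries of batch 1 (0.929 against 0.925 and 0.927 against 0.922), just above CP1 in WT replicate 1 (0.928), and below both in batch 2. CT3 (0.900) and CT2 (0.897) came before CP5 (0.893) and CP6 (0.886).

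Against CP1, the genes lowest in CP2 were led by Spock1, which encodes a secreted proteoglycan. Spock1 was at 43.3 CPM in CP2 and 481 CPM in CP1, and the atypical cadherin gene Fat3 at 229 and 1768 CPM. The others were Tnn, Gm10629, Dapk2, Fhod3, Adamts18, Samd5, Dab1 and Adam12, and 5 of the 10 had their highest level outside CP2 in osteoblasts. Runx2 was at 3887 and 4338 CPM in WT and 4217 and 4492 CPM in Tbx1+/-, and CP1 had 8806 CPM. The ratio of CP2 to CP1 was 0.470 to 0.496, much alike in the 4 libraries. Genes higher in CP2 than in CP1 were led by Tmeff2, at 518 CPM against 22.5 CPM, followed by Gm6260, the transporter gene Slco1a4, Rgs6, Itgbl1, Car10, Scara5, Nalcn, Nebl and Pcsk2. Of these 10, 5 had their highest level of all types in CP3 (Slco1a4, Itgbl1, Scara5, Nalcn and Nebl), for example 3859 CPM for Nebl against 831 CPM in CP2.

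Against CP3, the 10 genes highest in CP2 included a potassium channel gene and a SoxD factor gene. The potassium channel gene Kcnq5 was at 1743 CPM in CP2 and 169.9 CPM in CP3, and Sox6 was at 1018 and 184 CPM. Ifitm10, Gm6260, Hhip, Caln1, Kctd8, Sema3d, Slc26a7 and Zim1 completed the 10 higher in CP2. Lower in CP2 were Cacna1e, a calcium channel subunit gene, at 79.8 CPM against 1415 CPM, and the cystine transporter gene Slc7a11, at 11.7 against 266 CPM. Among the others were Gm49164, Gm45904, Gm33906, Ranbp3l, Gm30613, Cntnap4 and Synpr.

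Against CP4, its nearest type, CP2 was higher in Gm6260, Tll1, Kcnq5, Sema3d, Scube2, Slc26a7, Cntnap2, Ism1, Alcam and Efcab11. Kcnq5 was at 268 CPM in CP4 and Alcam at 242 CPM, against 1155 CPM in CP2. The synaptic adhesion gene Lrrtm4 was the clearest in the other direction among coding genes, at 113 CPM in CP2 and 1522 CPM in CP4. Gm30613, Plppr4, Zfp536, Chl1, Fgf12, Galnt17, Slco1c1, Pde1c and the NMDA receptor subunit gene Grin2a were also lower. Of the genes higher in CP2, Gm6260 stood on all 3 lists and Kcnq5, Sema3d and Slc26a7 on those against CP3 and CP4, which share the CP2 libraries.

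The cartilage matrix list of 18 genes summed to 5184 to 6347 CPM in CP2. CP2 stood sixth of the 15 types, with matured chondrocytes first at 20041 CPM and CP5 the highest of the CPs at 9050.2 CPM. Within the list, 17 of the 18 genes were above osteoclasts in every library. Col9a1, a chain of type IX collagen, was at 545 ± 91.2 CPM (SD, n = 4) in CP2 and 1829 CPM in CP5. Matn4, a matrilin, was at 238 ± 58.2 CPM (SD, n = 4) and Hapln1, which links aggrecan to hyaluronan, at 83.0 ± 15.8 CPM (SD, n = 4). Matured chondrocytes had 1353 CPM of Hapln1. Matrix genes of established cartilage were low in CP2. Matn1 was at 13.7 ± 6.86 CPM (SD, n = 4), Comp at 23.7 ± 3.93 CPM (SD, n = 4) and Matn3 at 9.27 ± 2.89 CPM (SD, n = 4), against 383, 655 and 247 CPM in matured chondrocytes.

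Among the chondrogenic factors, Sox5 was at 806 ± 66.1 CPM (SD, n = 4) and Sox6 at 1018 ± 27.3 CPM (SD, n = 4). Sox6 was 5.13 to 5.93 times CP3 and 2.60 to 3.91 times CP4 over the libraries, but matured chondrocytes had 2615 CPM. Fgfr3, the receptor that slows chondrocyte division, was at 49.0 ± 4.95 CPM (SD, n = 4) in CP2 and at 126 CPM in CP1. Gdf5 and Nkx3-2, genes of joint and early cartilage, were at most 1.77 CPM in any CP2 library. The 8 genes of hypertrophic cartilage summed to a mean of 2194 CPM in CP2 and 1836 CPM in osteoclasts, with 4 of the 8 above osteoclasts in every library and none over 2-fold. Col10a1 was at 22.1 ± 9.10 CPM (SD, n = 4) against 20.6 CPM in osteoclasts, and Mmp13 at 172 ± 51.3 CPM (SD, n = 4) against 176 CPM. Ihh, the ligand made by prehypertrophic chondrocytes, was at 2.30 ± 1.49 CPM (SD, n = 4) in CP2 and 50.8 CPM in matured chondrocytes.

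The osteoblast list of 14 genes summed to 12120 to 15227 CPM in CP2, eighth of the 15 types. Sp7 was at 93.5 ± 10.0 CPM (SD, n = 4), 0.313 to 0.412 times CP1, and the phosphatase gene Alpl at 175 ± 8.56 CPM (SD, n = 4), 0.323 to 0.328 times CP1. The late bone matrix gene Dmp1 was at 82.5 ± 40.0 CPM (SD, n = 4), against 82.1 CPM in osteoclasts, and Bglap, which encodes osteocalcin, at 223 ± 69.9 CPM (SD, n = 4), against 202 CPM. The fibrous mesenchyme list of 16 genes summed to 3471 to 4968 CPM. In it Col3a1 was at 692 ± 196 CPM (SD, n = 4), Vcan at 162 ± 31.9 CPM (SD, n = 4) and Gpc3 at 372 ± 8.23 CPM (SD, n = 4), and CT1 had 1524 CPM of Vcan.

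Genes of the mesenchyme around the ear ranged from the highest level of all types to low ones in CP2. Eya1, a coactivator needed for ear formation (chromosome 1, 14168954 to 14310235), was at 1173 and 1328 CPM in WT and 1260.0 and 1269 CPM in Tbx1+/-, the highest of the 15 types in every library. CT3 came next at 1105 CPM, and the CP2 values lay above those of CT3 within each library. Tbx18 was at 493 ± 22.7 CPM (SD, n = 4), behind CP3 and CP5. Car3, a carbonic anhydrase, was at 653 ± 48.9 CPM (SD, n = 4), with CP5 at 2093 and CP3 at 1869 CPM. Coch and Otor, secreted proteins of inner ear fibrocytes and cartilage, were at 29.8 ± 6.10 CPM (SD, n = 4) and 218 ± 73.6 CPM (SD, n = 4), far below CP3 for Coch (281 CPM) and CP5 for Otor (1529 CPM). The tendon factor gene Mkx was at 194 and 225 CPM in WT and 193 and 207 CPM in Tbx1+/-, above CP4 at 132 CPM and highest of the 15 types in every library. The tendon genes Scx and Tnmd were at 3.82 ± 0.931 CPM (SD, n = 4) and 7.52 ± 2.74 CPM (SD, n = 4).

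In the hedgehog pathway, a ligand is bound by Ptch1, which frees Smo to activate the Gli factors, while Hhip binds ligand and limits the signal. Hhip was at 539 and 645 CPM in WT and 542 and 666 CPM in Tbx1+/-, highest of the 15 types in every library and 1.55 to 2.11 times CP1. Smo was at 159 and 219 CPM in WT and 157 and 193 CPM in Tbx1+/-, also highest in every library, although CP3 at 143 and CP1 at 139.8 CPM were close. Gli1 and Ptch1 did not share that order. Gli1 was at 40.0 ± 2.63 CPM (SD, n = 4), second to CT4 at 45.5 CPM and close to CP1 at 35.2 CPM, and Ptch1 was at 297 ± 42.1 CPM (SD, n = 4), below CP1 at 461 and CT4 at 957 CPM.

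The sum of the 17 BMP pathway genes was the highest of the 15 types as a mean, at 1937 CPM, close to CT2 at 1883 CPM. The ligand gene Bmp5 carried much of it, at 604 ± 21.5 CPM (SD, n = 4), second in every library to CP5 at 653 CPM. Bmp4 was at 62.9 ± 15.2 CPM (SD, n = 4) and Bmp2 at 10.3 ± 2.21 CPM (SD, n = 4). The receptor gene Bmpr1b was at 175 ± 16.2 CPM (SD, n = 4), not separable from CP4 at 171 CPM, and the antagonist genes Nog and Grem1 were at 1.76 ± 0.854 CPM (SD, n = 4) and 1.37 ± 0.913 CPM (SD, n = 4). Among FGF and Wnt genes, Fgfr2 was at 1256 ± 108 CPM (SD, n = 4) (CT3 2453 CPM), Fgf18 at 12.4 ± 4.98 CPM (SD, n = 4), and Lef1, a factor that acts with beta-catenin, at 442 CPM, against 1193 CPM in CP4.

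Markers of other cells were measured for contamination. The sum of 8 osteoclast markers was 532 to 1127 CPM in CP2 and 11618 CPM in osteoclasts. It was highest in batch 1, at 1127 and 982 CPM, and 532 and 813 CPM in batch 2. Muscle markers summed to 293 and 325 CPM in batch 1 and to 52.6 and 33.4 CPM in batch 2, in a range that the other types shared (a mean of 176 CPM in CP2 and of 151 to 231.7 CPM in all other types but matured chondrocytes and osteoclasts). Erythroid markers summed to 422 to 721 CPM, endothelial markers to 75.3 to 99.5 CPM, immune markers to 65.0 to 106 CPM, neuronal markers to 89.6 to 121 CPM, glial markers to 148 to 363 CPM and mural markers to 79.0 to 118 CPM. None of the listed genes was at 0 over all libraries. The 5 epithelial genes summed to 168 to 196 CPM, most of it Cdh1, at 122 ± 23.5 CPM (SD, n = 4). As a mean this sum was the highest of the 15 types, at 185 CPM, close to CT2 at 183 CPM and CP5 at 170 CPM. The 9 meningeal fibroblast genes summed to 623 to 1087 CPM in CP2, against a mean of 4892 CPM in CT2.

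Nuclei in the cell cycle were frequent in CP2. Top2a, which untangles DNA before division, was at 175 and 189 CPM in WT and 196 and 208 CPM in Tbx1+/-, and CP1 had 78.2, CP3 49.7 and CP4 59.2 CPM. Mki67, a marker of cycling cells, was at 79.9 ± 10.4 CPM (SD, n = 4), and the motor protein gene Kif11 at 76.3 ± 6.16 CPM (SD, n = 4). All 14 proliferation genes had a higher mean in CP2 than in any other CP. Their sum was 733 CPM, against 724.5 CPM in matured chondrocytes, 684 CPM in CT3 and 407.5 CPM in CP1.

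A nucleus was counted as cycling if it held at least 2 UMIs over Mki67, Top2a, Cenpf, Cenpe, Kif11 and Aspm after thinning to 2000 UMIs, a rule chosen after the data were seen. In WT replicate 1, 14.6% of CP2 nuclei were cycling (172 of 1176, 95% exact binomial interval 12.7% to 16.8%). In WT replicate 2 the share was 13.5% (96 of 710, 11.1% to 16.3%). In Tbx1+/- replicate 1 it was 17.4% (149 of 858, 14.9% to 20.1%) and in Tbx1+/- replicate 2 15.7% (116 of 739, 13.1% to 18.5%). The intervals cover counting error only, and 15 to 40 shallower CP2 nuclei a library were left out. The mean of 15.3% compared with 6.62% in CP1, 3.85% in CP3, 4.55% in CP4, 3.32% in CP5 and 3.90% in CP6. The CP2 libraries and those of the other CPs did not overlap. CT3 (15.6%), the hypertrophic chondrocyte/osteoblast class (14.5%) and matured chondrocytes (19.6%) had shares like that of CP2, and osteoclasts, in which free RNA of these genes would also be counted, had 8.80%. Without thinning the mean of CP2 was 22.7% and that of CP1 14.1%.

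**Figure D3:**
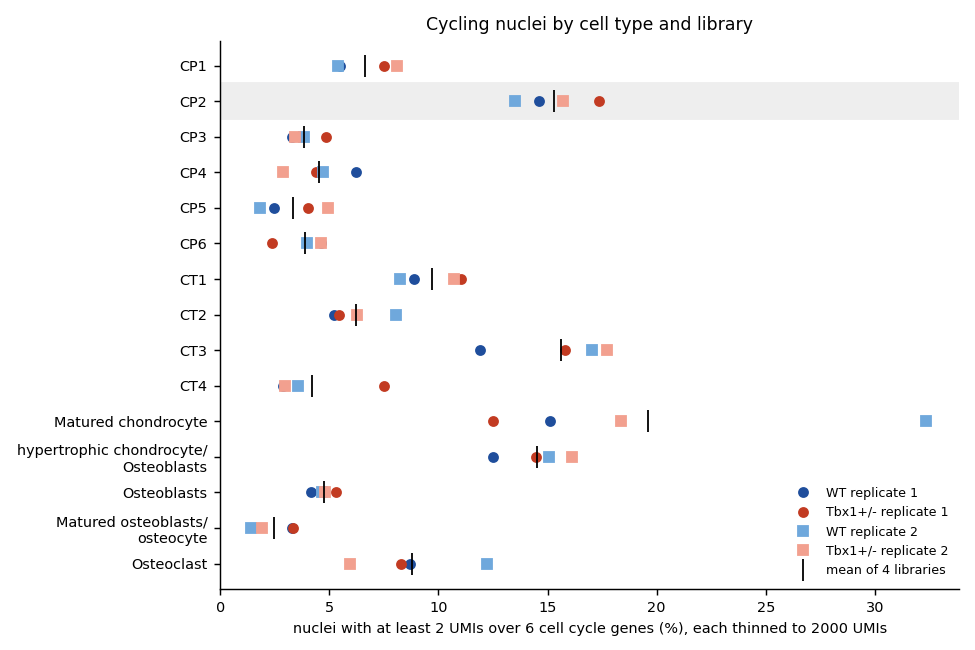
Percent of nuclei with at least 2 UMIs over 6 cell cycle genes, each nucleus thinned to 2000 UMIs, in the 15 PTB types. Each point is a library (dark for replicate 1, light for replicate 2, blue for WT and red for Tbx1+/-), the bar is the mean of the 4 libraries, and CP2 is shaded. The 4 CP2 libraries lie between 13.5% and 17.4%, to the right of all libraries of the other CP types.

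Both Tbx1+/- libraries had a higher share of cycling CP2 nuclei than both WT libraries. The log2 difference was 0.23, with 0.25 in batch 1 and 0.22 in batch 2 (exact two-sided permutation test over libraries, p = 0.333, the smallest p that 2 against 2 allows). With at least 1 UMI it was 0.11 and the genotypes overlapped, since Tbx1+/- replicate 2 at 27.7% lay below WT replicate 1 at 29.6%. With at least 3 UMIs it was 0.34. The direction was not limited to CP2. The share was also higher in Tbx1+/- in both batches in 7 of the other 14 types, among them CP1 (5.48% to 7.51% in batch 1 and 5.38% to 8.12% in batch 2) and CT1 (8.88% to 11.03% and 8.23% to 10.7%). It was lower in both batches in CP4 (6.20% to 4.38% and 4.73% to 2.87%), matured chondrocytes (15.1% to 12.5% and 32.3% to 18.4%) and osteoclasts (8.72% to 8.30% and 12.2% to 5.97%). Median CP2 depth was higher in the Tbx1+/- libraries of both batches before thinning.

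CP2 nuclei also differed among themselves. Principal components were taken over 2000 variable genes of the 3579 nuclei, and the nuclei were cut into tertiles of each component. The tertiles are ranges and not types, and 451 nuclei for component 1 and 490 for component 3 lay within 0.1 SD of a cut. The genes below had a part in the components, so their order is a description. The correlation with the log of a nucleus's UMIs was -0.15 for component 1, 0.33 for component 2 and 0.14 for component 3.

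Component 1, with 2.53% of the variance, ran from Runx2, Kcnq5, Diaph3, Efna5, Top2a and Neil3 to Nebl, Nalcn, Rgs6, Trpm3 and Car3. Runx2 had a mean of 6610.3, 4399 and 1357 CPM in the lowest, middle and highest tertile. Acan went with it, at 452, 170.2 and 50.7 CPM, as did Sox6, at 1939.9, 625 and 355 CPM, Sp7, at 160.0, 74.3 and 37.0 CPM, and Hhip, at 945, 638 and 168 CPM. Top2a was at 427, 89.6 and 26.0 CPM, so the Runx2 and Acan end also had the most Top2a. In the other direction, Nebl was at 153, 612 and 1821, the integrin-like gene Itgbl1 at 168, 787 and 1624 and Car3 at 188, 500.1 and 1333 CPM. Col2a1 was almost level, at 912, 991 and 968 CPM, and so were Sox9, at 66.5, 56.5 and 51.0 CPM, and Sox5, at 782, 884 and 758 CPM. Acan is itself among the leading genes of component 1, so its order along it was in part set by the cut. Col2a1 was nearly level here but varied along component 3. The lowest tertile held 32.3% and 32.3% of CP2 nuclei in WT and 35.3% and 33.7% in Tbx1+/-.

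Component 2, with 1.34% of the variance, set dividing nuclei (Neil3, Top2a, Diaph3, Kif11) apart from nuclei rich in Sema3d, Ifitm10 and Matn4. Sema3d had means of 5317, 3949 and 2330.4 CPM from the lowest to the highest tertile, while Top2a was at 28.7, 44.0 and 437 CPM and Matn4 at 366, 248 and 133 CPM.

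Component 3, with 1.13% of the variance, ran from the collagen genes Col9a1, Col27a1 and Col24a1 with Itga8, Prkg1, Eya4 and Tbx1 to Mgat4c, Tmeff2, Itgbl1, Cdh1 and Dpp4. Col9a1 was at 884, 498 and 301 CPM, Col2a1 at 1281, 933 and 704 CPM and Prkg1, a cGMP-dependent kinase, at 2459, 1461 and 999.7 CPM from the lowest to the highest tertile. The cell adhesion gene Cdh1 was at 31.0, 64.2 and 245, the peptidase gene Dpp4 at 28.7, 34.7 and 195, Klf5 at 5.67, 15.7 and 66.6 and Tmeff2 at 177, 321 and 963 CPM. Top2a, at 40.0, 179 and 334 CPM, was also higher at that end. The Cdh1 and Dpp4 end held 24.6% of CP2 nuclei in WT replicate 1 and 32.5% in Tbx1+/- replicate 1, but 42.0% and 40.1% in WT and Tbx1+/- of batch 2, so its share moved more between batches than between genotypes.

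**Figure D4:**
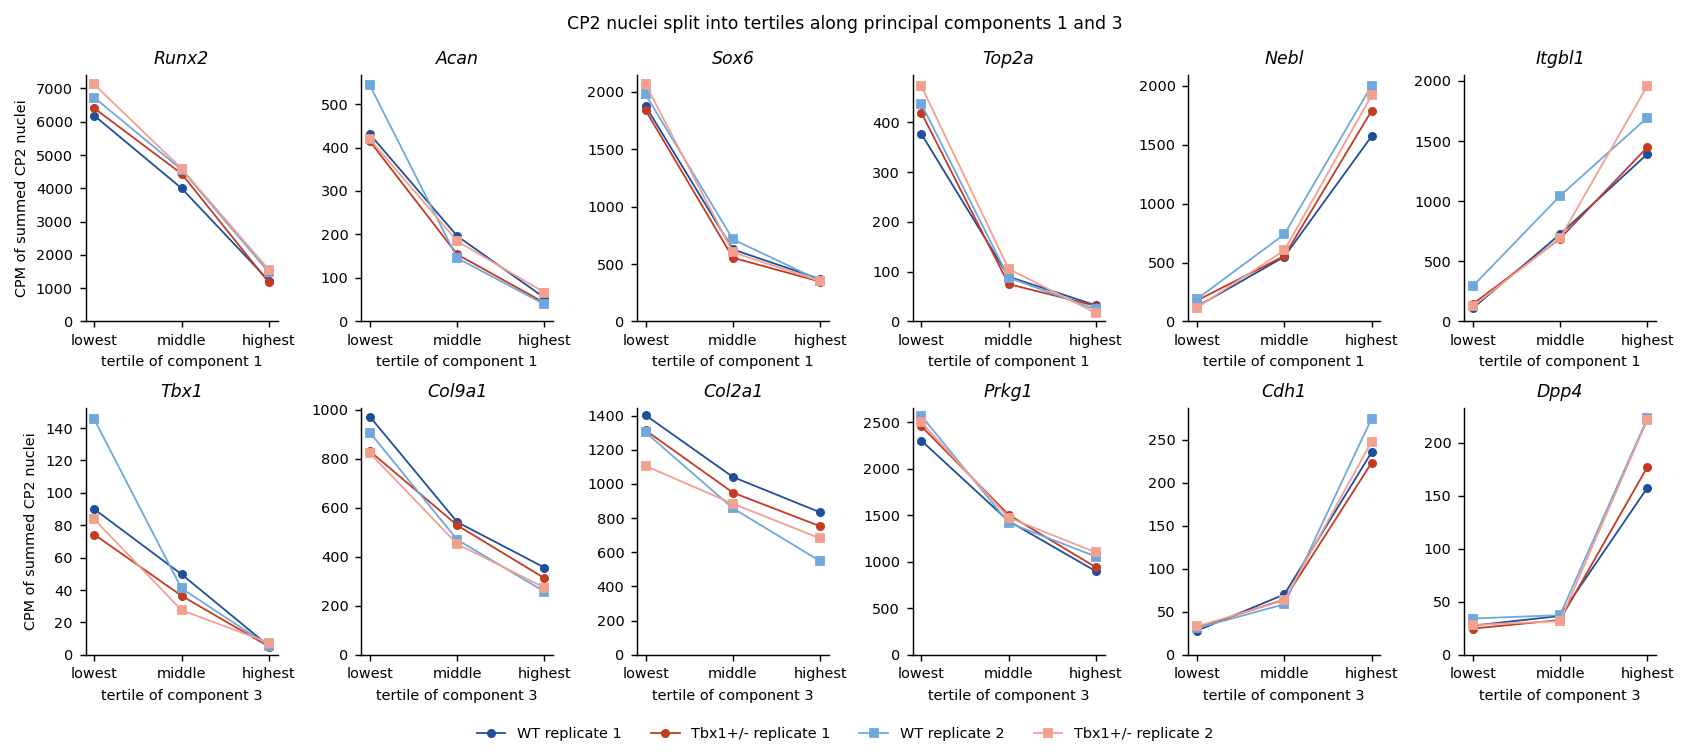
Levels of 12 genes in CP2 nuclei cut into tertiles along principal component 1 (top) and component 3 (bottom), in CPM of the summed nuclei. Each line is a library (dark for replicate 1, light for replicate 2, blue for WT and red for Tbx1+/-). In every library Runx2, Acan, Sox6 and Top2a are highest in the lowest tertile of component 1 and Nebl and Itgbl1 in its highest tertile, and Tbx1 is highest in the lowest tertile of component 3.

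Tbx1, the targeted gene, lies on the minus strand of chromosome 16 from 18580979 to 18590671. In CP2 it was at 55.1 and 52.6 CPM in WT and 36.9 and 33.4 CPM in Tbx1+/-, and the genotypes did not overlap. The log2 change was -0.61 (standard error 0.15, adjusted p = 1.00 over 14552 genes, edgeR), with -0.57 in batch 1 and -0.64 in batch 2. In the other CPs summed the log2 change was -0.27, and the difference from CP2, -0.36, did not pass the interaction test (edgeR). Tbx1 was detected in 7.91% of CP2 nuclei on average and in 1.36% of osteoclasts after thinning, and in 13.4% and 5.81% before it. The level in osteoclasts was 11.22 CPM. Which exons the disrupted allele lacks is not given in the sources used here, so these counts do not test the genotype.

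Within CP2, Tbx1 was unevenly spread. Along component 3 its mean was 98.3, 38.7 and 5.91 CPM. The highest tertile, at 5.14 to 7.50 CPM, lay below the mean of osteoclasts, although osteoclasts had 6.99 CPM in Tbx1+/- replicate 1. In the lowest tertile it was at 89.9 and 145 CPM in WT and at 74.3 and 83.7 CPM in Tbx1+/-. This tertile held 42.4% of CP2 nuclei in WT replicate 1 and 30.2% in Tbx1+/- replicate 1, but 27.1% and 28.4% in WT and Tbx1+/- of batch 2. Tbx1 is itself among the leading genes of component 3. Its levels in the tertiles of component 3 were thus in part set by the cut, in both genotypes. The share of the lowest tertile is likewise not independent of the Tbx1 level. In batch 1 both were lower in Tbx1+/-, and the part of the share in the Tbx1 difference of CP2 was not tested. Along component 1 it was at 12.9, 50.04 and 74.6 CPM. In the highest tertile of component 1 it was at 93.4 and 93.0 CPM in WT and at 59.6 and 52.5 CPM in Tbx1+/-, and in the lowest at 16.2 and 9.33 against 16.3 and 9.86 CPM. The Runx2 and Acan end of CP2 thus had little Tbx1. The WT and Tbx1+/- libraries stood apart only in the tertiles where the gene was present, and a tertile with little Tbx1 can hardly show a gap. These differences were not tested.

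Between the genotypes, no CP2 gene passed the test across all genes. With edgeR's quasi-likelihood test on the summed counts, 0 of 14552 genes (0%) passed an adjusted p of 0.05 with a change above 1.5-fold, and 238 had an unadjusted p under 0.05. DESeq2 also called 0 genes, with 34 under 0.05. The genotypes' libraries did not overlap for 3818 genes (26.2%). With the batch as a block, 2 genes (0.0137%) passed, both lower in Tbx1+/-, and 681 had an unadjusted p under 0.05. Without Tbx1+/- replicate 1, 12 genes passed, all lower.

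The 2 genes of the blocked fit were Lipf and Bpifa1, which encode a lipase of the digestive tract and a secreted airway protein. Lipf was at 42.3 and 6.74 CPM in WT and 5.60 and 0 CPM in Tbx1+/-, where 0 of 3957795 UMIs in Tbx1+/- replicate 2 belonged to it. Its log2 change was -3.17 (adjusted p = 6.9e-04, edgeR with the block), and -3.16 (adjusted p = 1.00) without it. In the fit without the block it was -1.26 without WT replicate 1 and -2.17 without Tbx1+/- replicate 2. Without Tbx1+/- replicate 1 it was -9.73, a fitted value against the library with no Lipf UMI, which is no bound. Bpifa1 was at 164 and 67.4 CPM in WT and 51.4 and 4.30 CPM in Tbx1+/-, with a log2 change of -2.30 (adjusted p = 7.3e-04, edgeR with the block), and -2.06 (adjusted p = 1.00) without it. In the fit without the block it was -1.27 without WT replicate 1, -1.18 without Tbx1+/- replicate 2 and -4.74 without Tbx1+/- replicate 1. Both were also found in osteoclasts, with 17.0 CPM of Lipf and 58.6 CPM of Bpifa1 in osteoclasts, against means of 13.7 and 71.9 CPM in CP2. In the other CPs summed, Lipf was at 6.03 and 6.37 CPM in WT and 8.39 and 0 CPM in Tbx1+/-. The 42.3 CPM of CP2 in WT replicate 1 was thus not shared by the other CPs of that library. The 12 genes called without Tbx1+/- replicate 1 were these 2, the muscle genes Myl1, Tnnc2, Mylpf, Tnni2, Acta1 and Myh8, the fat genes Fabp4, Cox8b and Ucp1, and Slc26a4. Summed muscle markers were at 293 CPM in WT and 325 CPM in Tbx1+/- of batch 1. In batch 2 they were at 52.6 CPM in WT and 33.4 CPM in Tbx1+/-. Without Tbx1+/- replicate 1, the only Tbx1+/- library was of batch 2, while WT had libraries of both batches. Genotype and batch are thus not separated in that fit. The part of the muscle markers in these calls was not tested. These genes were named after their values were seen.

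**Figure D5:**
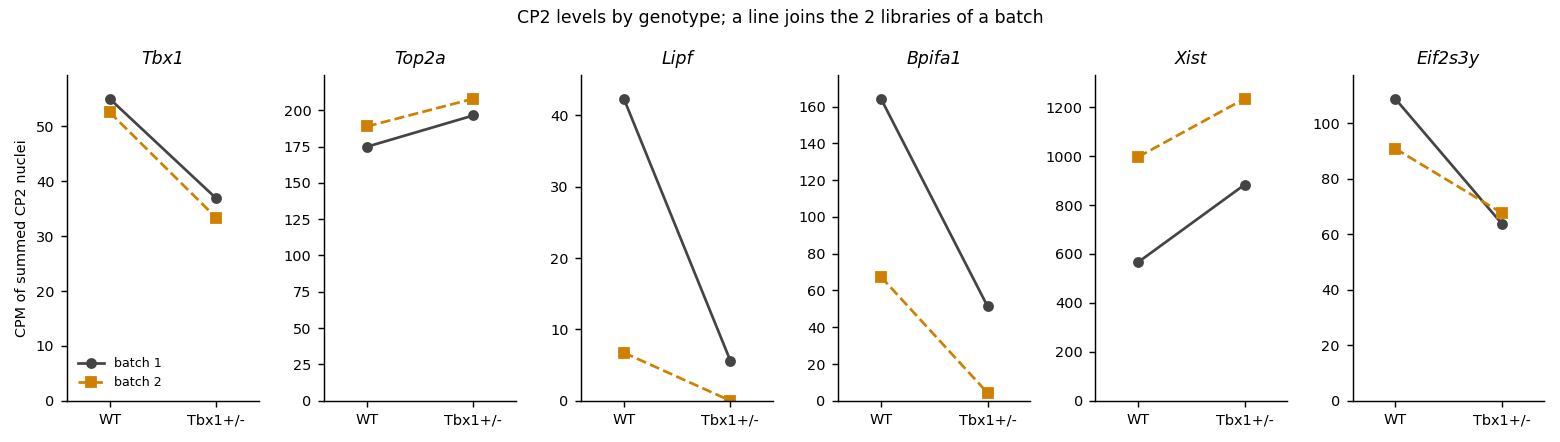
Levels of 6 genes in CP2 in WT and Tbx1+/-, in CPM of the summed nuclei. Each line joins the 2 libraries of a batch (circles and solid lines for batch 1, squares and dashed lines for batch 2). Tbx1, Lipf, Bpifa1 and Eif2s3y are lower and Top2a and Xist higher in Tbx1+/- in both batches, and the batches lie far apart for Xist, Lipf and Bpifa1.

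The genes with the smallest p and the same direction in both batches did not pass the threshold. Higher in Tbx1+/- were Zfp143 (log2 0.70), Slc43a2 (0.73), Gm47283 (0.60), Klf9 (0.53) and the mitotic motor gene Kifc1 (0.81), all on the log2 scale. Kifc1 was at 15.3 and 20.5 CPM in WT and 33.1 and 28.8 CPM in Tbx1+/-. Lower were Nell1os (log2 -0.90), Eif2s3y (-0.60), Gm26827 (-0.48) and 1700109K24Rik (-0.46), beside Tbx1. All had an adjusted p of 1.00 (edgeR). Eif2s3y is on the Y chromosome, at 109 and 90.9 CPM in WT and 63.9 and 67.7 CPM in Tbx1+/-. Gm47283, which the annotation also places on the Y chromosome, was higher in Tbx1+/-, at 332 and 416 CPM in WT and 559 and 567 CPM in Tbx1+/-. Whether its UMIs come only from the Y chromosome was not tested, so it is not read as a marker of male nuclei. Xist, which marks female nuclei, was at 566 and 996 CPM in WT and 883 and 1235 CPM in Tbx1+/-. The part of the pools' sex in these and the other values was not tested.

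With 0 of 14552 genes (0%) called, none of the 27 lists could hold a called gene. The lists are therefore described by direction without a test. Of all genes tested 7281 were higher and 7271 lower in Tbx1+/-, with a median log2 change of 0.00. In both batches 3427 of the 14552 were higher and 3652 lower. Of the 14 proliferation genes 13 were higher, 9 of them in both batches, with a median log2 change of 0.21 (0.24 in batch 1 and 0.14 in batch 2), and the genotypes did not overlap for 5, beside 26.2% of all genes. Top2a had a log2 change of 0.16 (standard error 0.12) and Mki67 of 0.22 (standard error 0.15). Of the 17 cartilage matrix genes tested 14 were lower, 7 of them in both batches, with a median of -0.12 (-0.24 in batch 1 and 0.02 in batch 2) that became 0.14 without WT replicate 1 and -0.38 without WT replicate 2. Of the 14 osteoblast genes 11 were higher, with a median of 0.10 (-0.01 in batch 1 and 0.27 in batch 2) that became -0.09 without Tbx1+/- replicate 1 or WT replicate 2 and 0.33 without WT replicate 1. Of the 16 fibrous mesenchyme genes 13 were lower, with a median of -0.11 (-0.13 in batch 1 and -0.05 in batch 2) that became 0.15 without WT replicate 1.

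The hedgehog genes had a median of 0.04, with 7 of 9 higher, and the BMP genes one of -0.03, with 7 higher and 8 lower. The medians of the FGF, Wnt, TGF-beta and IGF genes were 0.04, -0.03, -0.07 and -0.06, and that of the otic and periotic genes was 0.01. Of the lists of other cells, the 5 erythroid genes were lower in both batches, with a median of -0.20 (-0.23 and -0.18). Of the 5 epithelial genes 4 were lower, with a median of -0.28 (-0.36 and -0.10). The 4 mural genes tested were higher, with a median of 0.28 (0.43 and 0.16), and so were the 5 glial genes, with a median of 0.22 (0.40 and -0.08). The median was 0.30 for the 5 endothelial genes (0.02 and 0.48), of which 3 were higher. For 3 of the 5 the genotypes did not overlap, beside 26.2% of all genes. No overlap was also seen for 2 of the 17 cartilage matrix, 1 of the 14 osteoblast and 1 of the 16 fibrous mesenchyme genes. The median was 0.12 for the osteoclast genes, 0.02 for the immune genes, -0.03 for the muscle genes and -0.11 for the neuronal genes. Of the 18 neighbours of Tbx1 in the 22q11.2 syntenic region that were tested, 13 were higher, with a median of 0.10. The batches differed, with a median of 0.13 in batch 1 and -0.04 in batch 2, and 7 genes were higher and 5 lower in both. The genotypes did not overlap for 7 of the 18, beside 26.2% of all genes. These neighbours are present in both copies in Tbx1+/- mice.

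The question whether the genotype acted on CP2 otherwise than on the remaining CPs was addressed by an interaction of type and genotype, with the library as a block. Of 16779 genes 0 passed (0%, edgeR, adjusted p under 0.05), and 687 had an unadjusted p under 0.05. The lowest adjusted p was 0.0988, for Ryr3, a calcium release channel gene. Ryr3 was at 42.3 and 73.6 CPM in WT and at 64.4 and 69.2 CPM in Tbx1+/- in CP2, and in the other CPs at 113 and 178 CPM in WT and 79.5 and 117 CPM in Tbx1+/-. The interaction was 0.80 on the log2 scale (standard error 0.13). With any single library left out, 8 to 19 genes passed (19 without WT replicate 1, 8 without Tbx1+/- replicate 1 and 15 without each of the others), and 14 passed without a filter on low counts. Ryr3 was among them in each case but the one without Tbx1+/- replicate 1.

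The share of CP2 among annotated nuclei was 12.2% in both WT libraries and 10.1% and 11.8% in Tbx1+/- replicates 1 and 2. The log2 change was -0.16 (standard error 0.17, adjusted p = 0.855 over 15 types, edgeR). At a false discovery rate of 0.1, 0 of the 15 types passed, and 0 had an unadjusted p under 0.05. Relative to the other 5 CP types, there were 0.383 and 0.429 CP2 nuclei per nucleus in WT and 0.388 and 0.429 in Tbx1+/-. The log2 difference was 0.01, with 0.02 in batch 1 and 0.00 in batch 2 (exact two-sided permutation test, p = 1, where 2 against 2 cannot go below 0.33). Within the CPs, the place of CP2 was thus nearly the same in both genotypes of a batch.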

How the data were processed

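Bones of 5 mice a library were frozen and pulverized, and nuclei were sequenced with a Chromium 3′ kit. The authors aligned reads to mm10 with Cell Ranger 7.0.0 in intron mode and deposited raw UMI counts per gene and nucleus, with an annotation table holding the cell types and, as scores, the UMAP coordinates of each nucleus, which the authors computed from corrected counts. Annotated nuclei had passed their filters. Their SoupX correction for free RNA was not repeated, so the counts hold free RNA, and no doublets were removed here (leaving out the 8% of nuclei with the most UMIs was an alternative).

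Counts were summed over the CP2 nuclei of each library. Genotypes were compared with edgeR 4.0.16 (TMM, filterByExpr, quasi-likelihood test), at an adjusted p under 0.05 and over 1.5-fold, with DESeq2 1.42.0 as an alternative. Shares were tested with edgeR, since DCATS was not run, at a false discovery rate of 0.1. Same-numbered libraries are 1 batch per the study's methods, and their deviations from the genotype means correlated (r = 0.475 over 7977 genes), so a fit with the replicate block was run too. Named genes were the 20 highest and 10 lowest in CP2 against other types, 10 each way against CP1, CP3 and CP4, 5 each way with the smallest p between genotypes and the same sign in both batches, and members of fixed lists. The members and the lists were chosen with earlier results of these data known. The cycling rule, the tertiles and the genes set beside other types' markers were chosen after values were seen. Scripts were tested on simulated data. Gene positions come from GENCODE vM21 (GRCm38), in which 32158 of 32285 features matched. A few genes that these rules name are not reported here.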

Additional observations from a re-analysis of the deposited data

How the results depend on the processing

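The count of genes called between genotypes in CP2 was 0 with DESeq2, with RLE scaling, without a count filter, with nuclei of at least 2000 genes and without the 8% deepest nuclei. It was 2 with the replicate block and ran from 0 to 12 when single libraries were left out, where the lone library of a genotype was assumed to vary like the others. The interaction count was 0 with RLE scaling and with nuclei of at least 2000 genes, 14 without a count filter, and 8 to 19 when single libraries were left out. The cause was not tested. The block left the log2 change of the CP2 share at -0.16. That log2 change became 0.00698 with the CP nuclei as the total and ran from -0.27 to -0.05 over the left-out libraries. The genotype difference in the log2 ratio of CP2 to the other CPs became -0.18 against all other types (exact permutation p = 0.333). This difference ran from -0.0740 to 0.0919 over the left-out libraries, with -0.0740 without WT replicate 1 and -0.0631 without Tbx1+/- replicate 2. The median of the cartilage matrix list ran from -0.38 to 0.14 (0.14 without WT replicate 1), of the fibrous list from -0.33 to 0.15 (0.15 without WT replicate 1 and 0.08 without Tbx1+/- replicate 2), and of the osteoblast list from -0.09 to 0.33 (-0.0945 without Tbx1+/- replicate 1 and -0.0894 without WT replicate 2). Proliferation kept its sign, from 0.13 to 0.27, and so did Tbx1, from -0.68 to -0.55. Top2a levels ran from 164 to 215 CPM over the cell filters and averaging rules. Of the 20 leading genes 18 or 19 stayed. With 2 libraries a genotype, only changes well above their spread could pass.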

Other observations

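Some further genes set CP2 nuclei in relation to other tissues of the ear region. Mgp, which limits calcification of cartilage, was at 667 and 255 CPM in the WT libraries and at 358 and 318 CPM in the Tbx1+/- libraries, first or second of the 15 types in every library. Pou3f4, a factor of otic mesenchyme, was at 78.6 and 87.7 CPM in WT and at 67.4 and 89.9 CPM in Tbx1+/-, and CP5 had 108 CPM. Igf2 was at 607 and 315 CPM in WT and at 509 and 391 CPM in Tbx1+/-. Igf2 differed more between the batches than between the genotypes. Mgp stood highest in WT replicate 1, and its Tbx1+/- libraries were close to each other. Ttr, the transthyretin gene of choroid plexus and liver, was at 4.23 and 28.6 CPM in WT and at 110.2 and 21.5 CPM in Tbx1+/- in the CP2 nuclei, without a consistent direction between the batches.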
